A study of Rattus norvegicus with 12 samples.

Results

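A set of 7 genes of electroneutral salt absorption and proton exchange were followed across all libraries of the series: Slc9a2, Slc9a3, Slc26a3, Slc26a6, Atp12a, Car2 and Car4. They were chosen by name for their role in transport, with earlier results of these data known. They are 7 of the 18749 genes in the count table, where Car4 is listed as Ca4. The series asks what happens in small intestine after colectomy, and it holds sequenced polyadenylated RNA of intestine from wild-type (WT) rats, all in batch 1. The 4 postSTC libraries (replicates 1, 2, 5 and 7) were taken after the operation. The 4 preSTC libraries (replicates 1, 5, 7 and 9) were taken before it, and the 4 preCTC libraries (replicates 1, 5, 7 and 9) before a sham operation. No sample from after a sham operation was analysed here, so operation and elapsed time cannot be told apart. The labels do not state whether each replicate is its own animal. The p-values therefore reflect the spread among these libraries alone, and that spread may be technical.

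Electroneutral absorption of sodium chloride pairs a sodium-proton exchanger with a chloride-bicarbonate exchanger in the apical membrane of enterocytes, so that sodium and chloride enter while protons and bicarbonate leave. Carbonic anhydrases supply both exchangers by turning carbon dioxide and water into bicarbonate and protons. In the distal colon a potassium-dependent proton pump of the apical membrane exchanges luminal potassium for protons. The equipment differs along the gut: Slc9a3 and Slc26a3 serve in both small intestine and colon, Slc26a6 is mainly a small intestinal exchanger, and Atp12a is a gene of the distal colon.

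Library totals were 30095656 to 39374682 counts, and levels are CPM, counts relative to the library total after scaling with edgeR's TMM factors (trimmed mean of M values). In postSTC7, 13 genes of male accessory glands took 44.23% of all counts (Wilson 95% interval 44.22 to 44.25%, counting error only), and its TMM factor was 0.568 against 0.970 to 1.15 elsewhere. The summed level of the same 13 genes was 173 to 249 CPM in the other postSTC libraries, 210 CPM in preSTC7 and 1.90 to 5.35 CPM in the remaining 7 libraries. In preCTC5, the distal colon genes Hoxb13 and Hoxd13 stood at 1.45 and 1.70 CPM, against 315 to 445 and 16.9 to 138 CPM in the other preCTC libraries, while Hoxa13 stood at 60.1 CPM there and at 40.6 to 64.7 CPM in the others.

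Regional and cell type markers also differed between the groups. The 6 ileal enterocyte markers summed to 2167 to 8135 CPM in postSTC, 5831 to 6927 CPM in preSTC and 13.8 to 57.4 CPM in preCTC. The 6 colon markers summed to 134 to 313 CPM in postSTC, 37.5 to 51.4 CPM in preSTC and 294 to 854 CPM in preCTC. The 9 epithelium markers summed to 6963 to 14168 CPM in postSTC, 13365 to 16612 CPM in preSTC and 9917 to 13893 CPM in preCTC. The 8 smooth muscle markers summed to 5588 to 8318 CPM in postSTC, 3135 to 4835 CPM in preSTC and 10135 to 17006 CPM in preCTC. The 6 fibroblast markers summed to 2103 to 3766 CPM in postSTC, 1895 to 2496 CPM in preSTC and 5078 to 7920 CPM in preCTC. No marker of these 5 lists was at 0 in all libraries of a group. Because preSTC and preCTC differed in regional markers, group and sampled gut region cannot be told apart in any comparison with preCTC. This also holds where postSTC is placed between preSTC and preCTC. The summed colon markers were also higher in every postSTC library than in any preSTC library. Operation and sampled gut region therefore cannot be told apart in postSTC against preSTC either. The part of tissue makeup in the results on the transport genes was not tested, and in these bulk samples fewer cells of a type and less RNA per cell cannot be told apart.

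After the operation, 2 of the 7 genes, Atp12a and Car2, were higher than in preSTC and none was lower (edgeR quasi-likelihood fit, adjusted p below 0.05). Among all 15704 tested genes 18% were called in that comparison, 11.1% higher and 6.9% lower. With the replicate number as a block the calls over all genes were 1746 (12 libraries) or 66 (8 libraries), against 2833 without it. Only numbers 1, 5 and 7 occur in both postSTC and preSTC, so the blocked fit of 8 libraries compares within those pairs alone. Atp12a and Car2 were also the members whose postSTC and preSTC libraries did not overlap, against 22.1% of all tested genes (11.9% higher and 10.2% lower). In postSTC against preCTC, 1 gene was higher (Slc26a6) and 3 were lower (Slc9a3, Slc26a3 and Car4), where 16.6% of all tested genes were called, 9.27% higher and 7.37% lower. Libraries of 3 members did not overlap there (Slc26a6 higher, Slc26a3 and Car4 lower), against 18.1% of all tested genes (9.54% higher and 8.6% lower). With library sizes taken from the epithelium markers the split was 2 higher and 3 lower, Slc9a2 being added. With the replicate number as a block it was 1 higher and 1 lower over 12 libraries, and no member was called over the 8 compared. In preSTC against preCTC, 2 genes were higher (Slc9a2 and Slc26a6) and 4 were lower (Slc9a3, Slc26a3, Atp12a and Car2), where 38.7% of all tested genes were called, 19.1% higher and 19.6% lower. Libraries of these 6 members did not overlap, against 45% of all tested genes (22.5% higher and 22.5% lower). The split of calls was 1 higher and 4 lower with total counts and 1 higher and 5 lower with epithelium markers. The median log2 fold change of the 7 members was -0.05, -1.64 and -1.71 in the 3 comparisons, in that order, beside 0.04, 0.04 and -0.02 over all tested genes. With postSTC7 and preCTC5 both left out, 2 members were called in postSTC against preSTC (2 higher), 6 in postSTC against preCTC (2 higher, 4 lower) and 6 in preSTC against preCTC (2 higher, 4 lower). The 3 comparisons share libraries, so they are not independent of each other.

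**Figure D1:**
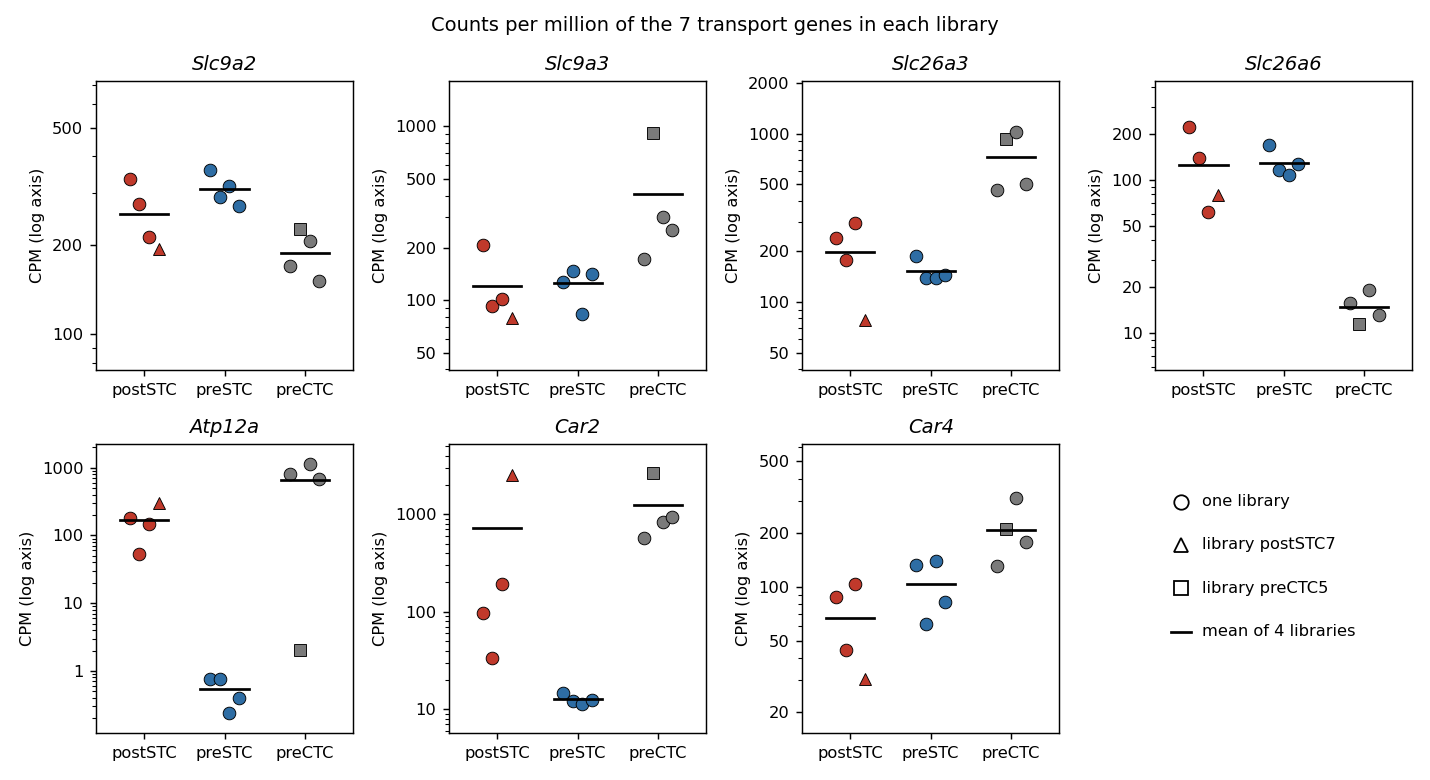
Each panel plots the CPM of a member gene (log axis) in every library of postSTC, preSTC and preCTC; points are libraries, the triangle is postSTC7, the square is preCTC5 and bars are means of 4 libraries. Atp12a and Car2 lie higher in all 4 postSTC libraries than in any preSTC library, and Slc26a6 lies lowest in preCTC.

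The promoters of 4 members are shown: Slc9a3, Slc26a3 and Car4 as the genes lower in postSTC than in preCTC, and Atp12a as the gene with the largest differences between groups. Of 2 entries for Atp12a the one printed is listed as entry 1. Each sequence is the RefSeq window from 250 bases before to 50 bases after the gene's start in the GRCr8 build, with matches in capitals. The motifs searched on both strands were the GC box GGGCGG (in 33.1% of all 33469 rat promoters), the TATA box TATAAA (14.2%), the CDX core TTTAT (42.5%) and the steroid receptor half-site AGAACA (20.7%). A TATA box overlaps the reverse of the CDX core, ATAAA.
Slc9a3: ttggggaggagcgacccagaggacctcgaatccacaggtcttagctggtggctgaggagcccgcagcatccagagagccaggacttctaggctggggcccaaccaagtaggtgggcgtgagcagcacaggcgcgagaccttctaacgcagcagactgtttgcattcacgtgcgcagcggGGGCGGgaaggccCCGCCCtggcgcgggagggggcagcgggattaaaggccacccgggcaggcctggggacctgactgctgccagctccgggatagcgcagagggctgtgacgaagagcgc
Slc26a3: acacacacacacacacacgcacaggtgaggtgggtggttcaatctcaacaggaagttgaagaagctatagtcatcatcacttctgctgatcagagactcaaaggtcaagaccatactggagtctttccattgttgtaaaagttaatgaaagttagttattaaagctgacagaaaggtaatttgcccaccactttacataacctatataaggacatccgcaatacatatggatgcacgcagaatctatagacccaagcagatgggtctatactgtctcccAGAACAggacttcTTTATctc
Atp12a: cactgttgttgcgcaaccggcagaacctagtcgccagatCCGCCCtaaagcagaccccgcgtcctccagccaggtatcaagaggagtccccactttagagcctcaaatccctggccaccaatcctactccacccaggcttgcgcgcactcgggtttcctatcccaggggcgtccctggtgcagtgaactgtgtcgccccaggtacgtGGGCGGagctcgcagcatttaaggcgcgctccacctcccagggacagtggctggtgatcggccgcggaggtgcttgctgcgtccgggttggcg
Car4: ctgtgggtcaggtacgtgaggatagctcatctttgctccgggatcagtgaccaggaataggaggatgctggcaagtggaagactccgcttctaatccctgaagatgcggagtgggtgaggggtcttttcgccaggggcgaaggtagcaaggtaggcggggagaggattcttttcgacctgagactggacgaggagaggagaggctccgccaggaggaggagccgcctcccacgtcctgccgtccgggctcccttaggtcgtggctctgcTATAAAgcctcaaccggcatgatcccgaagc
The Slc9a3 window (chr1:30995953-30996252, minus strand) and the Atp12a window (chr15:34558959-34559258, plus strand) hold 2 GC boxes each. The Slc26a3 window (chr6:53751165-53751464, plus strand) holds 1 CDX core and 1 half-site, and the Car4 window (chr10:70325108-70325407, plus strand) holds 1 TATA box with its overlapping CDX core. The matches in the Slc26a3 and Car4 windows lie after the gene's start, while the GC boxes in the Slc9a3 and Atp12a windows lie before it. The half-site and CDX core of Slc26a3 began 29 and 42 bases after the start, and the TATA box and CDX core of Car4 19 and 20 bases after it. The share of G and C was 66.7% for Slc9a3, 63.7% for Atp12a, 59.7% for Car4 and 41.7% for Slc26a3. Entry 2 of Atp12a, which is not printed, held no GC box and 1 half-site, and its share of G and C was 48.3%. A match is a run of letters and no evidence of a bound factor.

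Slc9a3 encodes the main apical sodium-proton exchanger of absorptive enterocytes. Its level was 207, 93.2, 102 and 79.2 CPM in postSTC1, 2, 5 and 7, 128, 147, 83.7 and 142 CPM in preSTC1, 5, 7 and 9, and 172, 911, 303 and 253 CPM in preCTC1, 5, 7 and 9. The postSTC and preSTC libraries overlapped, all preSTC libraries were below all preCTC libraries, and postSTC1 was above preCTC1. Slc9a3 averaged 120 ± 58.6 CPM in postSTC and 125 ± 28.6 CPM in preSTC (SD, n = 4 each), with a log2 fold change of -0.05 ± 0.47 (SE, adjusted p = 0.951). Against the preCTC mean of 410 ± 339 CPM, the log2 fold change was -1.77 ± 0.49 in postSTC (adjusted p = 0.0277) and -1.71 ± 0.48 in preSTC (adjusted p = 0.0154). The first of these calls was lost when postSTC2, postSTC5, postSTC7 or preCTC5 was left out (adjusted p = 0.0729, 0.0627, 0.0536 and 0.064) and when only the 8 libraries compared were fitted (adjusted p = 0.0845). It was also lost with the replicate number as a block, over 12 libraries (adjusted p = 0.129) and over the 8 compared (adjusted p = 0.376). Without preCTC5 the log2 fold changes were -1.01 in postSTC and -0.96 in preSTC (adjusted p = 0.0437), and the other 3 preCTC libraries averaged 243 ± 66.2 CPM.

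Slc9a2 encodes a second apical sodium-proton exchanger, which works beside Slc9a3. Its level was 336, 276, 214 and 194 CPM in postSTC1, 2, 5 and 7, 360, 292, 317 and 272 CPM in preSTC1, 5, 7 and 9, and 170, 227, 206 and 151 CPM in preCTC1, 5, 7 and 9. All preSTC libraries were above all preCTC libraries, and the postSTC libraries overlapped both. The log2 fold change was 0.72 ± 0.19 in preSTC against preCTC (adjusted p = 0.00955), 0.44 ± 0.18 in postSTC against preCTC (adjusted p = 0.13) and -0.28 ± 0.18 in postSTC against preSTC (adjusted p = 0.308). The call against preCTC was lost with total counts as library sizes (adjusted p = 0.16), with epithelium markers (0.117) and on log2(FPKM + 0.1) or log2(FPKM + 1) (0.173 and 0.172). In postSTC against preCTC the gene was called with epithelium markers (log2 fold change 0.63, adjusted p = 0.0221).

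Slc26a3 encodes the chloride-bicarbonate exchanger whose loss causes congenital chloride diarrhoea in humans. Its level was 241, 178, 293 and 78.6 CPM in postSTC1, 2, 5 and 7, 188, 138, 139 and 145 CPM in preSTC1, 5, 7 and 9, and 461, 924, 1026 and 504 CPM in preCTC1, 5, 7 and 9. Every preCTC library was above every STC library, and postSTC7 was the lowest of all. The log2 fold change was -1.88 ± 0.37 in postSTC against preCTC (adjusted p = 0.00548), -2.26 ± 0.38 in preSTC against preCTC (adjusted p = 0.000741) and 0.37 ± 0.36 in postSTC against preSTC (adjusted p = 0.505). With library sizes taken from the epithelium markers, the last of these was 0.91 (adjusted p = 0.0247), in a fit where the median over all tested genes was 0.68. With the replicate number as a block, postSTC against preCTC gave -2.0 over 12 libraries (adjusted p = 0.0425) and -2.07 over the 8 compared (adjusted p = 0.214).

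Slc26a6 encodes an apical exchanger of chloride for bicarbonate and oxalate in the small intestine. Its level was 220, 138, 61.0 and 79.0 CPM in postSTC1, 2, 5 and 7, 168, 115, 107 and 126 CPM in preSTC1, 5, 7 and 9, and 15.6, 11.4, 18.9 and 12.9 CPM in preCTC1, 5, 7 and 9. All postSTC and preSTC libraries were above all preCTC libraries, while postSTC and preSTC overlapped. The mean was 124 ± 71.8 CPM in postSTC, 129 ± 27.6 CPM in preSTC and 14.7 ± 3.31 CPM in preCTC (SD, n = 4 each). Against preCTC the log2 fold change was 3.08 ± 0.37 in postSTC (adjusted p = 0.000214) and 3.13 ± 0.37 in preSTC (adjusted p = 6.64e-05), and between postSTC and preSTC it was -0.05 ± 0.34 (adjusted p = 0.936).

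Atp12a encodes the catalytic subunit of the colonic proton-potassium pump. Its level was 180, 53.7, 149 and 303 CPM in postSTC1, 2, 5 and 7, and 0.76, 0.75, 0.24 and 0.39 CPM in preSTC1, 5, 7 and 9. In preCTC1, 5, 7 and 9 it was 801, 2.03, 1129 and 687 CPM. Every postSTC library was over 50 CPM and every preSTC library under 1 CPM, and preCTC5 was far below the other preCTC libraries. The log2 fold change was 8.31 ± 1.44 in postSTC against preSTC (adjusted p = 0.00347), with limma voom giving 8.19 (adjusted p = 0.314) and log2(FPKM + 1) giving 4.78 (adjusted p = 0.0615). It was -10.25 ± 1.54 in preSTC against preCTC (adjusted p = 0.000357, or 0.217 with limma voom) and -1.93 ± 1.05 in postSTC against preCTC (adjusted p = 0.237). Without preCTC5 the last was -2.35 (adjusted p = 0.00817), and the remaining preCTC libraries averaged 872 ± 229 CPM (SD, n = 3). The rise in postSTC held without postSTC7, at a log2 fold change of 7.88 (adjusted p = 0.00465). Atp12a was highest of postSTC in postSTC7, and the part of the accessory gland transcripts in that level was not tested.

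Car2 encodes a highly active cytosolic carbonic anhydrase. Its level was 96.5, 33.4, 194 and 2531 CPM in postSTC1, 2, 5 and 7, and 14.6, 12.1, 11.4 and 12.4 CPM in preSTC1, 5, 7 and 9. In preCTC1, 5, 7 and 9 it was 565, 2642, 840 and 936 CPM. All postSTC libraries were above all preSTC libraries, and postSTC7, the library rich in accessory gland transcripts, stood above 3 of the 4 preCTC libraries. The log2 fold change was 5.82 ± 1.25 in postSTC against preSTC (adjusted p = 0.0097), and 3.08 without postSTC7 (adjusted p = 0.00535), when postSTC averaged 108 ± 81.0 CPM (SD, n = 3). With the replicate number as a block it was 5.14 over 12 libraries (adjusted p = 0.0345) and 4.63 over the 8 libraries compared (adjusted p = 0.125). Against preCTC it was -0.80 ± 1.02 in postSTC (adjusted p = 0.641), or -3.53 without postSTC7 (adjusted p = 0.00296), and -6.62 ± 1.30 in preSTC (adjusted p = 0.00198), or -5.95 without preCTC5. The part of the accessory gland transcripts in the Car2 level of postSTC7 was not tested.

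Car4 encodes a carbonic anhydrase anchored to the outer face of the apical membrane. Its level was 87.8, 44.3, 104 and 30.6 CPM in postSTC1, 2, 5 and 7, 131, 61.9, 139 and 82.2 CPM in preSTC1, 5, 7 and 9, and 130, 211, 312 and 178 CPM in preCTC1, 5, 7 and 9. All postSTC libraries were below all preCTC libraries, and preSTC overlapped both groups. The log2 fold change was -1.64 ± 0.41 in postSTC against preCTC (adjusted p = 0.0175), -1.0 ± 0.40 in preSTC against preCTC (adjusted p = 0.0664) and -0.64 ± 0.40 in postSTC against preSTC (adjusted p = 0.29). The call in postSTC was lost without postSTC2 (adjusted p = 0.0506) or preCTC7 (adjusted p = 0.0527). In preSTC against preCTC the gene was called with DESeq2 (adjusted p = 0.0308), with epithelium markers as library size (0.00618), with only those 8 libraries (0.0239) and without postSTC7 (0.0343).

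**Figure D2:**
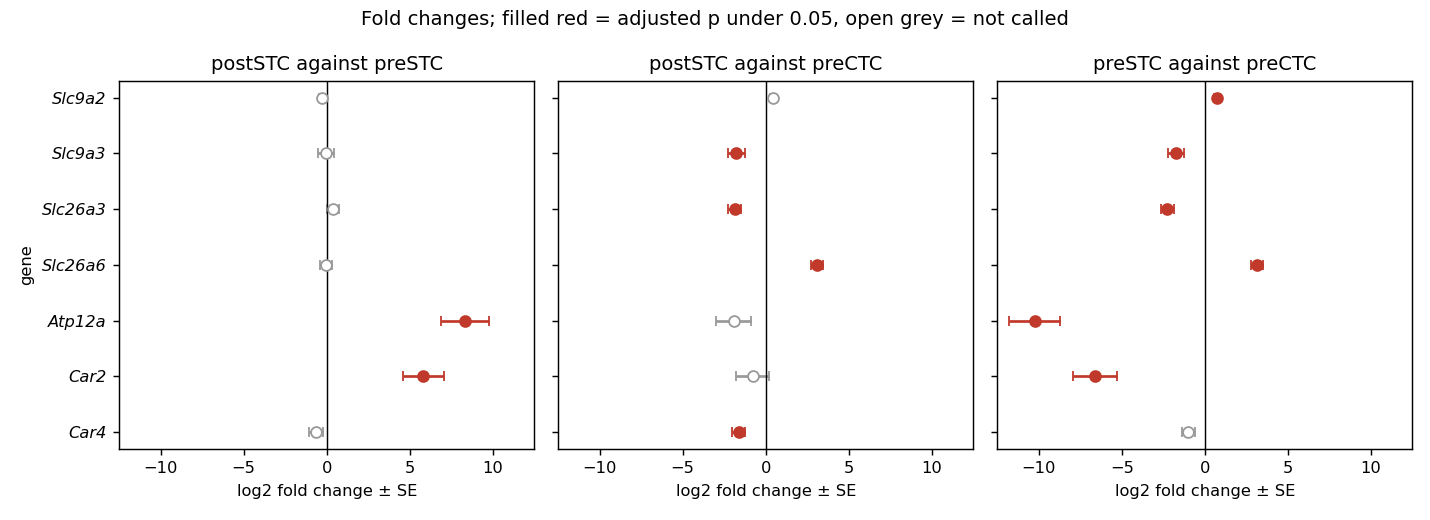
Log2 fold changes with their standard errors (horizontal axis) for the 7 genes (rows) in the 3 comparisons; filled red points have an adjusted p under 0.05 and open grey points do not. In postSTC against preSTC the filled points are Atp12a at 8.31 and Car2 at 5.82, and Slc26a6 is filled on the right of 0 in both comparisons with preCTC.

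The balance between members of the same function was read within each library as a ratio of FPKM (reads scaled for gene length and library total), which does not depend on library scaling. A total of 9 exact two-sided permutation tests were made on log2 ratios, 4 libraries against 4, where the smallest p possible is 0.0286, and p-values were adjusted over the 9 tests. The ratio of Slc26a3 to Slc26a6 was 1.56, 1.84, 6.84 and 1.41 in postSTC1, 2, 5 and 7, 1.59 to 1.86 in preSTC and 42.1 to 116 in preCTC. Each preCTC library thus had a ratio above every STC library, with postSTC5 the highest of those. The mean log2 ratio was 1.20 ± 1.06 in postSTC and 6.08 ± 0.63 in preCTC, a difference of -4.88 (exact permutation p = 0.0286, adjusted 0.0429), and 0.76 ± 0.10 in preSTC, a difference of 0.43 from postSTC (exact permutation p = 0.83, adjusted 0.83).

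The ratio of Slc9a3 to Slc9a2 was 0.229 to 0.418 in postSTC, 0.179 to 0.353 in preSTC and 0.687 to 2.73 in preCTC. Its mean log2 value differed by -1.99 between postSTC and preCTC and by -2.17 between preSTC and preCTC (exact permutation p = 0.0286, adjusted 0.0429 for each), and by 0.18 between postSTC and preSTC (exact permutation p = 0.571, adjusted 0.734). The ratio of Car4 to Car2 was 0.870, 1.27, 0.512 and 0.0116 in postSTC1, 2, 5 and 7, 4.89 to 11.6 in preSTC and 0.0763 to 0.356 in preCTC. The RNA level of Car4 per length was thus above that of Car2 in every preSTC library. It was below that of Car2 in every preCTC library and in 3 of the 4 postSTC libraries. The mean log2 ratio was -1.81 ± 3.12 in postSTC and 2.90 ± 0.54 in preSTC, a difference of -4.71 (exact permutation p = 0.0286, adjusted 0.0429), while postSTC and preCTC differed by 0.65 (exact permutation p = 0.743, adjusted 0.83). Without postSTC7 the postSTC mean was -0.28 ± 0.66 (SD, n = 3), which differed by -3.17 from preSTC and by 2.19 from preCTC.

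**Figure D3:**
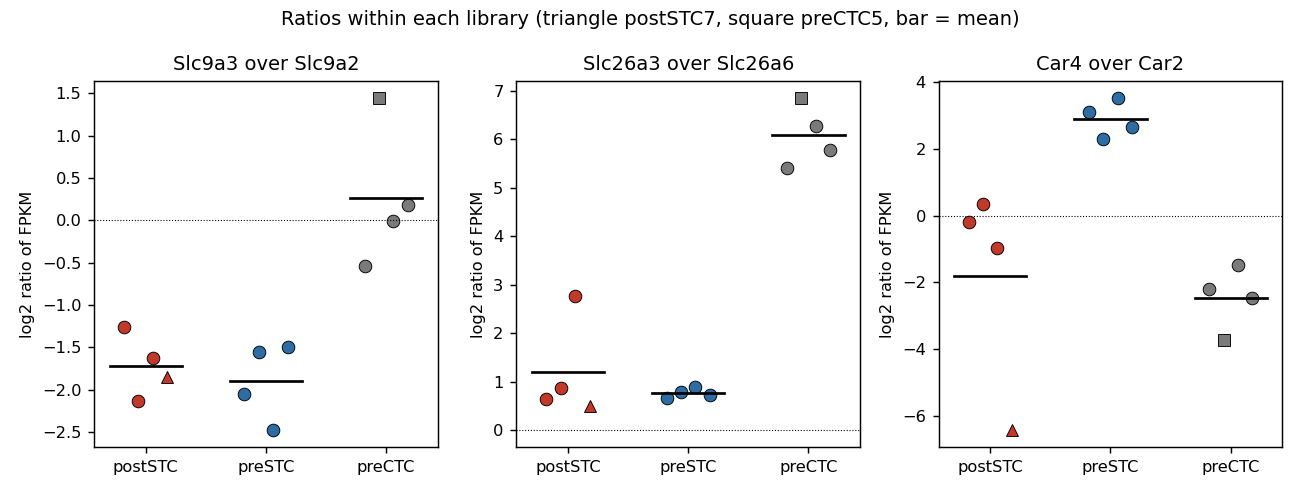
Log2 ratios of FPKM within each library for Slc9a3 over Slc9a2, Slc26a3 over Slc26a6 and Car4 over Car2; points are libraries, the triangle is postSTC7, the square is preCTC5 and bars are means of 4 libraries. For both exchanger pairs the postSTC libraries overlap those of preSTC, with Slc26a3 over Slc26a6 highest in postSTC5, and the Car4 to Car2 ratios of postSTC lie below those of preSTC.

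Levels were compared between genes per length, as FPKM divided by the TMM factor. In postSTC the mean scaled FPKM was 484 for Car2, 66.2 for Slc26a3, 57.8 for Slc9a2, 43.3 for Car4, 38.5 for Atp12a, 29.3 for Slc26a6 and 18.5 for Slc9a3. The Car2 mean rests on postSTC7, at 1717 scaled FPKM, and the lowest Car2 library stood at 22.7; without postSTC7 Car2 averaged 73.4, below Slc26a3 at 79.5 scaled FPKM. In preSTC the order was Slc9a2 at 70.4, Car4 at 67.4, Slc26a3 at 51.1, Slc26a6 at 30.3, Slc9a3 at 19.2, Car2 at 8.60 and Atp12a at 0.12 scaled FPKM. In preCTC it was Car2 at 847, Slc26a3 at 244, Atp12a at 147, Car4 at 135, Slc9a3 at 63.0, Slc9a2 at 42.7 and Slc26a6 at 3.46 scaled FPKM. Without preCTC5 the preCTC means were 530 for Car2, 196 for Atp12a and 222 for Slc26a3, and Slc9a3 (37.3) stood below Slc9a2 (39.8). Between neighbours in each order over all 4 libraries the values overlapped, except at 6 steps. In preSTC these were from Slc26a3 to Slc26a6, from Slc26a6 to Slc9a3, from Slc9a3 to Car2 and from Car2 to Atp12a. In preCTC they were from Car2 to Slc26a3 and from Slc9a2 to Slc26a6.

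Where each postSTC library lay between the baselines was expressed as a percentage of the distance on the log2 CPM scale from the preSTC mean (0%) to the preCTC mean (100%), as a description with no test. Atp12a lay at a median of 97.6% (79.0 to 108.0%), or 77.9% (63.0 to 86.2%) with preCTC5 left out of the preCTC mean. Car2 lay at 54.1% (22.1 to 120.1%), and Slc26a3 at 20.8% (-43.5 to 43.7%). Slc26a6 lay at 9.0% (-25.4 to 33.7%) and Slc9a3 at -22.7% (-43.4 to 53.0%), or at -34.3% (-65.7 to 80.2%) with preCTC5 left out and at -12.1% (-89.2 to 51.0%) on log2(FPKM + 0.1). Slc9a2 lay at 47.2% (-16.6 to 91.5%) and Car4 at -64.9% (-166.5 to 8.0%), over baseline distances of -0.73 and 1.01 log2 units.

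The partners of these genes were taken from 6 lists of other exchangers, regulators, carbonic anhydrases, pumps and channels, with 56 genes in the count table and 52 tested. In postSTC against preSTC, 8 were higher and 4 lower, with a median log2 fold change of 0.03, where 11.1% of all tested genes were higher and 6.9% lower (18% called). None of 7 other sodium-proton exchangers and none of 9 other tested carbonic anhydrases was called. Fxyd4, a distal colon modulator of the sodium pump, was 101, 43.8, 118 and 27.2 CPM in postSTC1, 2, 5 and 7, against 0.62 to 0.73 CPM in preSTC (log2 fold change 6.77 ± 1.41, adjusted p = 0.00829). Limma gave no call for it with voom (adjusted p = 0.453) or on log2(FPKM + 0.1) and log2(FPKM + 1) (0.0639 and 0.0867). Its preCTC libraries stood at 541, 0.33, 247 and 291 CPM in preCTC1, 5, 7 and 9, so that preCTC5 was low for Fxyd4 as for Atp12a.

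Hsd11b2, the enzyme that inactivates glucocorticoids in aldosterone target cells, averaged 78.3 ± 24.8 CPM in postSTC and 28.4 ± 7.46 CPM in preSTC (SD, n = 4 each), with a log2 fold change of 1.46 (adjusted p = 0.00282). Of 10 other anion exchangers and bicarbonate transporters tested, 3 were higher, 1 was lower and 6 were not called. Those higher were Slc4a7 by 1.03 (adjusted p = 0.00163), Slc4a3 by 2.00 (adjusted p = 0.0143, or by 1.21 without postSTC7) and Slc4a8 by 1.25 log2 units (adjusted p = 0.0446). Slc4a1 (-1.22, adjusted p = 0.109), Slc4a4 (-1.04, adjusted p = 0.182) and Slc4a2 (0.04, adjusted p = 0.882) were among those not called. The Slc4a8 call was lost without any single library other than postSTC1 and postSTC5 (adjusted p = 0.0516 to 0.111). Atp1b2, a beta subunit of the sodium pump, rose by 0.88 (adjusted p = 0.00776), and the exchanger scaffold Slc9a3r2 by 0.77 log2 units (adjusted p = 0.0163). The scaffold Slc9a3r1 averaged 454 ± 109 CPM in postSTC and 826 ± 133 CPM in preSTC (SD, n = 4 each) and fell by 0.86 log2 units (adjusted p = 0.0141).

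Slc26a2, a sulfate transporter, fell by 0.69 (adjusted p = 0.0231), and Ezr, which links the scaffold to actin, fell by 0.57 log2 units (adjusted p = 0.0233). The Slc26a2 call was lost without postSTC2, preSTC1 or preSTC7 (adjusted p = 0.0566 to 0.066), and the Ezr call without postSTC2, postSTC5, preSTC1 or preSTC7 (adjusted p = 0.0559 to 0.0712). With the replicate number as a block over 12 libraries, 5 of these 10 partners lost their call: Slc4a3 (adjusted p = 0.0518), Slc4a8 (0.151), Slc9a3r2 (0.0688), Slc26a2 (0.0556) and Ezr (0.0529). Over the 8 libraries compared, the blocked fit left only Fxyd4 called (adjusted p = 0.0255), and the other adjusted p-values were 0.211 for Slc4a3, 0.159 for Hsd11b2, 0.317 for Slc4a8, 0.0766 for Slc4a7, 0.135 for Atp1b2, 0.104 for Slc9a3r1, 0.212 for Slc9a3r2, 0.14 for Slc26a2 and 0.128 for Ezr. With total counts as library sizes 5 of the 10 calls were kept, on log2(FPKM + 0.1) only that of Slc4a3 (adjusted p = 0.0307), and on log2(FPKM + 1) 0 of 10. With library sizes taken from the epithelium markers, 7 of the 10 calls were kept. Those of Slc9a3r1 and Slc26a2 were lost and Ezr changed sign, in a fit where the median over all tested genes was 0.68.

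In postSTC against preCTC, 7 partners were higher and 13 lower (median 0.14), where 9.27% of all tested genes were higher and 7.37% lower (16.6% called). Pdzk1, a scaffold of apical transporters, was 71.6 to 230 CPM in postSTC and 0.16 to 0.51 CPM in preCTC, a log2 fold change of 8.74 (adjusted p = 6.12e-07). Among carbonic anhydrases Car14 was higher (2.56) and Car1 (-4.69) and Car9 (-1.37) were lower, and the scaffold Pdzd3 was higher (1.45, adjusted p = 0.00213). Car13 was higher by 2.24 and Slc4a4, a basolateral sodium bicarbonate cotransporter, by 1.80 log2 units. Without preCTC5 those values were 3.78 and 2.68, and that of Car1 was -3.04 (-5.89 without postSTC5). The calls of Car13 and Slc4a4 were lost without other single libraries: 10 of 12 for Car13 (all but postSTC7 and preCTC5, adjusted p = 0.0562 to 0.103) and 7 of 12 for Slc4a4 (postSTC1, postSTC2, preSTC7, preSTC9, preCTC1, preCTC7 and preCTC9, adjusted p = 0.0527 to 0.101). Slc4a1, the red cell anion exchanger and also an erythrocyte marker, fell by 2.46, Hsd11b2 by 1.43 and the chloride channel Clcn2 by 1.17 log2 units. The 6 erythrocyte markers summed to 219 to 653 CPM in postSTC and 814 to 1914 CPM in preCTC, and their part in the Slc4a1 value was not tested.

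In preSTC against preCTC, 10 partners were higher and 15 lower (median -0.13), where 19.1% of all tested genes were higher and 19.6% lower (38.7% called). The largest differences among the 10 named by size were Pdzk1 (9.27), Fxyd4 (-8.67) and Car1 (-6.25). Car13 (3.01), Slc4a4 (2.84), Car14 (2.13), Slc9a3r1 (2.00) and Pdzd3 (1.94) were higher, and Hsd11b2 (-2.90) and Car9 (-2.32) were lower, all as log2 fold changes with an adjusted p of at most 0.00514. Limma voom gave no call for Fxyd4 (adjusted p = 0.375), whose log2 fold change was -8.08 without preCTC1. Without preCTC5 the values were 4.56 for Car13, 3.72 for Slc4a4 and -4.60 for Car1, and Car1 was at -7.10 without preSTC9. Atp4a and Atp4b, the subunits of the gastric proton pump, had 0 counts in all postSTC libraries together, and were not tested.

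**Figure D4:**
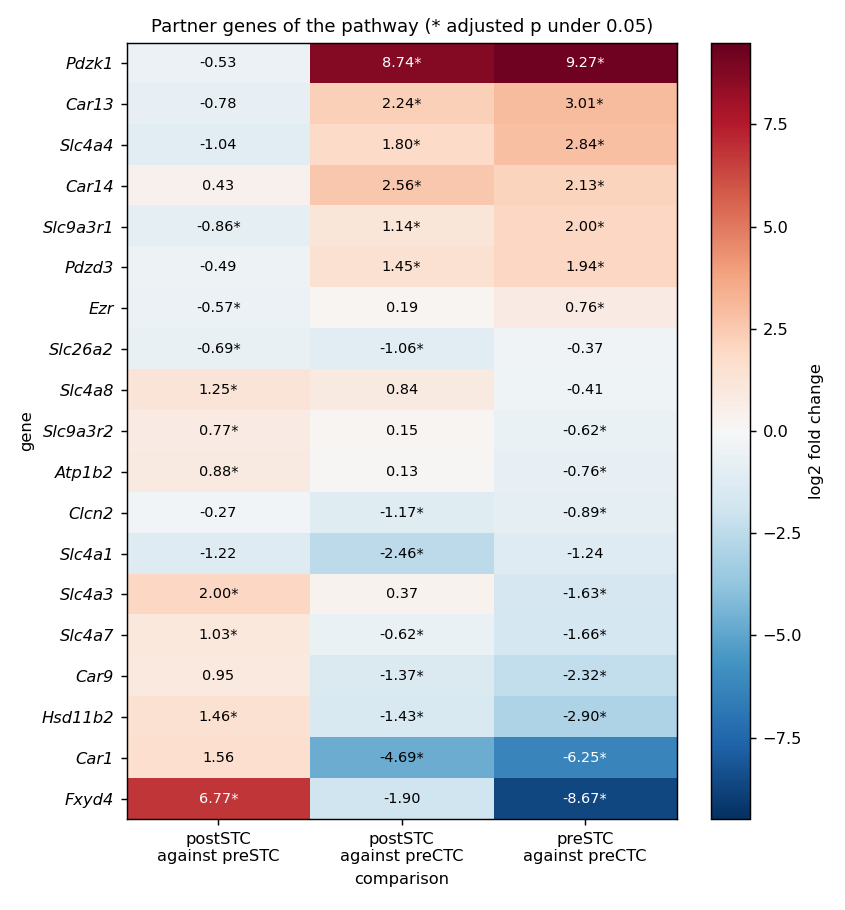
Log2 fold changes of the named partner genes (rows) in the 3 comparisons (columns); red is higher and blue lower in the group named before "against", and a star marks an adjusted p under 0.05. Fxyd4 is at 6.77 in postSTC against preSTC and -8.67 in preSTC against preCTC, while Pdzk1 is at 8.74 and 9.27 against preCTC.

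Genes with the most similar profile were found for each member as those with the smallest root mean square difference of centred log2 CPM over the 12 libraries, among 14166 genes. For Atp12a this was Hoxb13, a transcription factor gene of the hindgut (0.62), then Tgm3 (1.19) and Sftpd (1.20). Within libraries Atp12a had 1.94, 1.27, 1.19 and 4.83 counts per Hoxb13 count in postSTC1, 2, 5 and 7, 1.80 to 7.00 in preSTC and 1.40 to 3.41 in preCTC. The preSTC ratios rest on few counts: Atp12a had 9 to 29 counts per library there, and Hoxb13 stood at 0.06 to 0.31 CPM. The lowest preCTC ratio was that of preCTC5, where both genes were low. Genes near Slc26a3 included Ethe1 (0.30) and Zbtb7c (0.31). For Slc26a6 they were Myrf (0.31), Dgat1 (0.31) and Gsdme (0.37), and for Slc9a3 they were Sh2d3a (0.34), Nat2 (0.38) and Klhdc8a (0.45). For Slc9a2 they were Dffb (0.10), Dnajc22 (0.11) and Mob3b (0.11), and for Car4 they were Lypd8 (0.35), Txn1 (0.41) and Fgfbp1 (0.44). No gene came closer to Car2 than 1.10, for LOC100911668 and Wdr72, followed by Fa2h (1.12). These distances describe the 12 libraries and carry no test.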

How the data were processed

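Polyadenylated RNA of rat intestine was measured in 12 libraries, 4 in each of 3 groups taken from the sample titles. The authors deposited raw counts of reads, 1 column per library. The submitters' processing notes name fastp, HISAT2, HTSeq and mRatBN7.2, without versions or roles. The series' design text describes pig, ileum, a TruSeq kit, Trimmomatic and featureCounts; it goes against the rat labels and was not used. Strand use and the treatment of reads with several matches are unstated in the labels and headers. The deposited FPKM values, which the authors computed per gene length and library total, served for ratios, levels between genes and alternatives.

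Counts were scaled by TMM in edgeR 4.0.16 (R 4.3.3), filterByExpr kept 15704 of 18749 genes (83.8%), and a quasi-likelihood model of group alone was fitted across the 12 libraries. P-values were adjusted over all tested genes by Benjamini and Hochberg, with a threshold of 0.05. The standard error is the absolute log2 fold change over the square root of F. Alternatives used other library sizes, no filter, DESeq2 1.42.0, limma 3.58.1, the replicate block and each library left out. Same-numbered postSTC and preSTC samples deviated together (r = 0.158 to 0.236 in 3 pairs), so blocked values are given with the results of that comparison where they change a call; the pairing comes from the data, not from the labels. Replicates differed by more than sampling noise (chi-square per gene at least 32.3). Members and lists were chosen with earlier results of these data known. Named partners are the called list genes of largest absolute fold change, at most 10 per comparison; genes named for likeness are the 3 nearest, of a mean of at least 1 CPM, and 1 of them is not reported here. Of the members, 6 matched by symbol and Car4 by its gene identifier. Promoters are RefSeq's for GRCr8, not the assembly named in the processing notes, and 5 of the 7 members had an entry. The fit was tested on simulated data.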

Additional observations from a re-analysis of the deposited data

Results flagged for a closer look

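In 21 sets of 4 libraries (7 genes in 3 groups), each on the CPM and the log2 CPM scale, a library was marked when its gap to the nearest other library exceeded Dixon's 95% critical share of the range of its group. Chance marks about 1 in 20 such sets. Car2 in postSTC7 was 2531 CPM, the highest of postSTC, with the other postSTC libraries at 33.4 to 194 CPM. Atp12a in preCTC5 had a log2 CPM of 1.02, the lowest of preCTC. Slc26a3 in preSTC1 was 188 CPM, or 7.55 on the log2 scale, the highest of preSTC, with the other preSTC libraries at 138 to 145 CPM. What sets these libraries apart was not tested.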

How the results depend on the processing

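Of 525 alternative values of the members' log2 fold changes, 476 kept direction and side of the threshold, 22 lost and 12 gained a call, and 15 changed sign; of 750 for partners, 101 lost the call and 1 changed sign. The alternatives that leave out postSTC7 and preCTC5 together, or the accessory gland genes, were chosen after seeing the data. For postSTC against preSTC, 1 member was called with limma voom, with log2(FPKM + 1) and with the replicate block over 8 libraries, and 2 with any 1 library left out. Over all genes, 2833 were called (1749 higher, 1084 lower), against 848 with total counts (671 higher, 177 lower), 6962 with epithelium markers (6860 higher, 102 lower), 653 and 521 on log2(FPKM + 0.1) and log2(FPKM + 1), 1746 and 66 with the replicate block over 12 and 8 libraries, and 1609 to 3684 with 1 library left out (1609, 1855 and 1681 without preSTC1, preSTC5 and preSTC7). For postSTC against preCTC, 2 and 0 members were called with the replicate block over 12 and 8 libraries and 2 to 4 with 1 library left out (2 without postSTC2). Over all genes the 2612 calls (1455 higher, 1157 lower) became 1560 with total counts (608 higher, 952 lower), 1695 with epithelium markers (1344 higher, 351 lower), 1569 and 1668 on the FPKM scales, 1455 with only 8 libraries, and 1399 and 151 with the replicate block. For preSTC against preCTC, the 6077 calls (2995 higher, 3082 lower) became 3973 with total counts (1175 higher, 2798 lower), 3753 and 3824 on the FPKM scales, and 4673 with epithelium markers (969 higher, 3704 lower). Same-numbered samples did not deviate together in every pair of these last comparisons (r = 0.22, -0.0159 and 0.0544 for numbers 1, 5 and 7, own number best in 2 of 3; r = 0.222, -0.0278, 0.171 and 0.145 for numbers 1, 5, 7 and 9, own number best in 3 of 4). Not every r passed 0.1, so these numbers were not taken as a pairing; the number 5 pairs hold preCTC5. With epithelium markers as library size, the median of all genes moved to 0.68, 0.29 and -0.41 in the 3 comparisons, and in postSTC against preSTC Slc9a2 (0.28), Slc9a3 (0.45), Slc26a6 (0.45) and Ezr (0.045) changed sign. Slc9a3 also did so with the replicate block (0.029 and 0.012) and without both libraries (0.10), and Slc26a6 without both (0.11). With 1 library left out these ran from -0.45 to 0.10 for Slc9a3 and -0.48 to 0.18 for Slc26a6. The log2 ratio differences ran from -0.014 to 0.32 (Slc9a3 over Slc9a2) and -0.091 to 0.67 (Slc26a3 over Slc26a6) in postSTC against preSTC, and from -0.072 to 2.19 (Car4 over Car2) in postSTC against preCTC. The cause of these changes was not tested. Only 4 libraries a group limit the precision, and no exact permutation p of a ratio can go below 0.0286.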

Other observations

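Within preCTC, preCTC5 differed from the other 3 libraries in more transport genes than Atp12a, genes chosen here after their values were seen. Car1 was 3108 CPM in preCTC5 and 226 to 494 CPM in the others, and Prkg2, a kinase that inhibits Slc9a3, was 108 CPM in preCTC5 and 3.25 to 17.9 CPM in the others. Slc4a4 was 118 CPM in preCTC5 and 17.7 to 36.1 CPM in the others, and Car13 was 18.1 CPM in preCTC5 and 1.36 to 2.73 CPM in the others. Sgk1, a kinase induced by aldosterone, was 107 CPM in preCTC5 and 259 to 652 CPM in the others. These are values of 1 library with no replicate.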
